A study of Mus musculus with 24 samples.

Results

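Matrix proteases and their inhibitors are the matrix metalloproteinases (Mmp), the ADAMTS proteases (Adamts), the ADAMTS-like proteins (Adamtsl), which carry the ancillary domains of ADAMTS without the catalytic domain, and the tissue inhibitors of metalloproteinases (Timp). The genes were chosen by name, as protein-coding genes of GENCODE M21 whose symbol is one of these stems followed by a number, with an optional a or b after the number of an Mmp. Of the 55487 Ensembl identifiers counted in each mouse, 50 met this rule, 22 Mmp, 19 Adamts, 5 Adamtsl and 4 Timp genes. A further symbol of this form, Mmp1a, belongs to another gene type (a polymorphic pseudogene) and was not a member. The Mmp and Adamts proteins are zinc-dependent enzymes that act outside the cell or at its surface, and most are made with a propeptide that keeps them inactive until it is removed. Timp proteins block the active enzymes by binding at the catalytic site. In skeletal muscle these enzymes act on the basement membrane of the fiber, on the connective tissue between fibers and on the tendon.

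RNA was sequenced from the left tibialis anterior (TA) muscle of 24 male wild-type C57BL/6J mice, 5 to 7 weeks old, to ask how photobiomodulation therapy (PBMT), a dose of near-infrared light, changes transcripts at rest and after exhausting exercise. The 6 sedentary PBMT mice received 830 nm light from an LED at 25 mW/cm2 for 20 min (30 J/cm2), and the TA was dissected 24 h later. The 6 sedentary control mice were shaved and anesthetized for 20 min without light. The 6 fatigued PBMT and 6 fatigued control mice were handled in the same ways and then ran on a treadmill to exhaustion. The run of the PBMT mice began 24 h after the light. All 12 fatigued mice were dissected right after the run. Sedentary and fatigued mice were sequenced as separate projects, so a difference between the states and a difference between the projects cannot be told apart. The depth of a library, its total count, was 43271093 to 46904076 in sedentary controls, 46327516 to 52775844 in sedentary PBMT mice, 56792327 to 68726155 in fatigued controls and 53122528 to 68566029 in fatigued PBMT mice. Levels are given in CPM, which scales each count to a library total of fixed size after adjustment by the TMM method. The tissue was checked by 7 muscle fiber genes, which summed to between 92700 and 157000 CPM per mouse, with Myh4 the most abundant (mean 37900 CPM).

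Of the 50 genes, 39 passed the filter on low counts in the fit to all 24 mice, 8 had counts but stayed under it, and 3 had no count in any mouse. The 3 without a count were Mmp7 (matrilysin), Mmp21 and Mmp1b, so their transcripts were not detectable at this depth. The 8 under the filter were Mmp16, Adamts16, Mmp24, Adamts18, Mmp10, Adamts19, Mmp20, known from tooth enamel, and Adamts13, the protease that cleaves von Willebrand factor, with 1 count in all. Levels of different genes are compared here per kb of exon, as the mean over 24 mice. On this scale the inhibitors led: Timp2 stood at 25.9 and Timp3 at 25.3 CPM per kb, ahead of the gelatinase Mmp2 at 14.2 and Timp4 at 8.61. Adamtsl5 (7.52 CPM per kb), Adamts1 (6.78), Adamtsl4 (4.66) and Mmp15 (4.44) came next. The order of near neighbors differed between the groups. Timp3 and Timp2 lay close, at 21.7 and 21 CPM per kb in sedentary controls and 30.9 and 30 in fatigued controls. In PBMT mice they stood at 18.3 and 19.8 when sedentary and 30.2 and 32.7 when fatigued. These 2 Timp2 means include single high mice, sedentary PBMT mouse 6 (102 CPM) and fatigued PBMT mouse 5 (203 CPM). Adamts1 lay above Adamtsl5 in fatigued muscle (8.88 against 7.36 CPM per kb in controls, 8.39 against 7.11 in PBMT mice) and below it in sedentary muscle. Adamts2, Mmp14, Adamts8 and Adamts5 had between 1.46 and 2.06 CPM per kb. The least abundant tested gene was the macrophage elastase Mmp12, at 0.0169 CPM per kb. The 4 Timp genes held 52.5% of the summed CPM per kb of the family, the Mmp genes 23%, the Adamts genes 13.1% and the Adamtsl genes 11.4%.

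**Figure D1:**
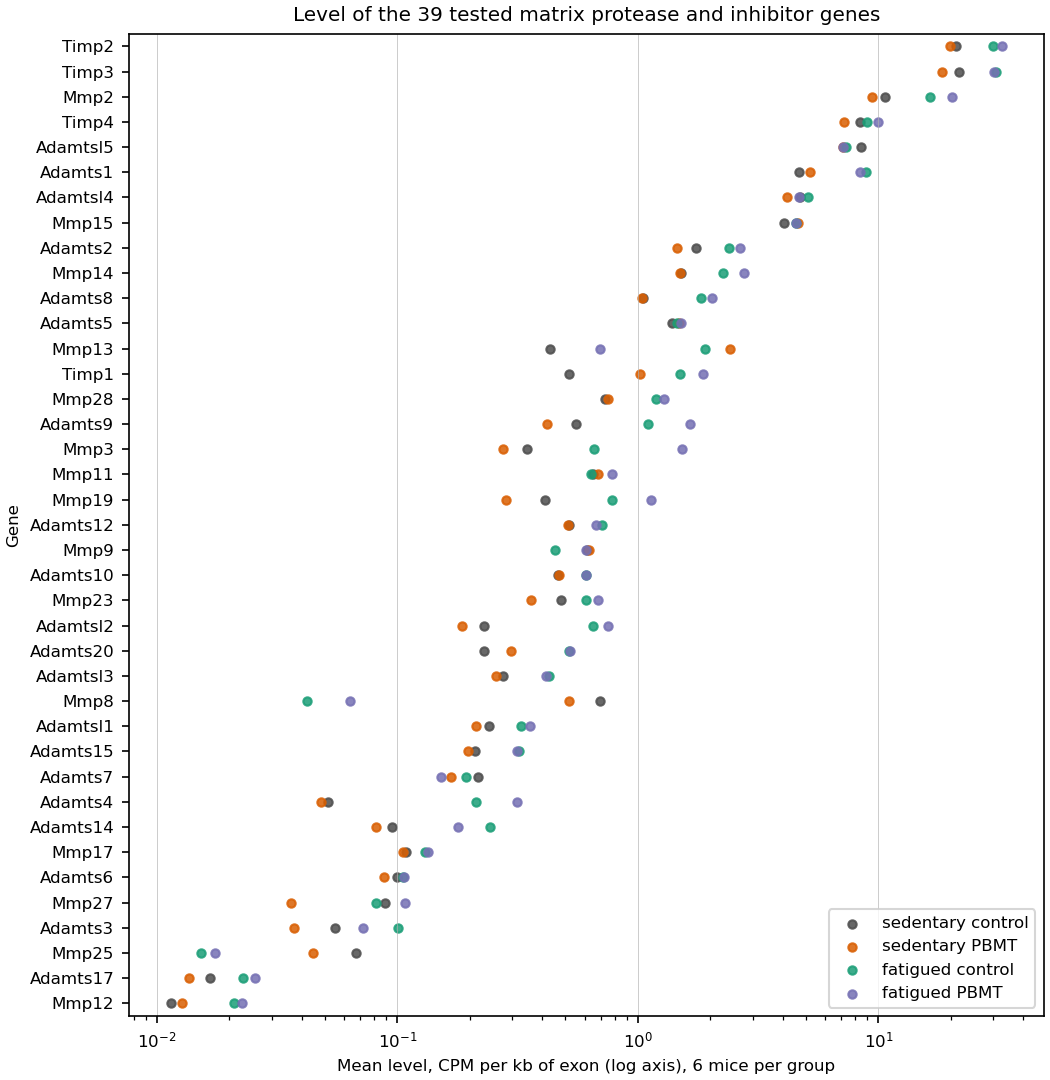
Mean level of each of the 39 tested genes in CPM per kb of exon (log axis), with 1 point for each group of 6 mice, ordered by the mean over all 24 mice. Timp2 and Timp3 stand highest, at 25.9 and 25.3 CPM per kb over all mice, and Mmp8 has both sedentary points far to the right of its fatigued points.

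A few libraries stood apart, and they bear on several genes of the family. Mmp13, a collagenase known from osteoblasts and growth-plate cartilage, reached 36.5 CPM in sedentary PBMT mouse 6 and 27.8 CPM in fatigued control mouse 1. It was next highest in fatigued PBMT mouse 1 (5.95 CPM), sedentary control mouse 2 (4.22 CPM) and fatigued PBMT mouse 5 (3.35 CPM). The medians were 0.487, 0.153, 0.606 and 0.522 CPM in sedentary controls, sedentary PBMT mice, fatigued controls and fatigued PBMT mice, so most muscles held little Mmp13 transcript and single mice stood far above their group. Mmp9 (gelatinase B, made by neutrophils and osteoclasts) was highest in 3 mice, at 5.57 CPM in sedentary PBMT mouse 6, 5.43 CPM in fatigued control mouse 1 and 7.66 CPM in fatigued PBMT mouse 5. A list of 10 bone cell markers, written after these values were seen, summed to 77.8 CPM in sedentary PBMT mouse 6, 89.4 CPM in fatigued control mouse 1 and 112 CPM in fatigued PBMT mouse 5. The medians of that sum were 22.7, 21.2, 37.5 and 46.3 CPM in the 4 groups in the order above, its most abundant gene was Alpl (mean 16.7 CPM), and its gene for bone sialoprotein, Ibsp, stood at 20.4, 24.3 and 4.08 CPM in those 3 mice. Fatigued PBMT mouse 5 was also the highest of the 12 fatigued mice in 18 of the 36 members tested there. Its members summed to 977 CPM, against 676 to 812 CPM in the other fatigued mice. In the same mouse 6 fibroblast markers summed to 838 CPM (group median 490 CPM) and 6 tendon markers to 867 CPM (group median 301 CPM). The part of these cell types in the levels of the members was not tested. In RNA from whole muscle, fewer cells of a type and less RNA per cell cannot be told apart.

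**Figure D2:**
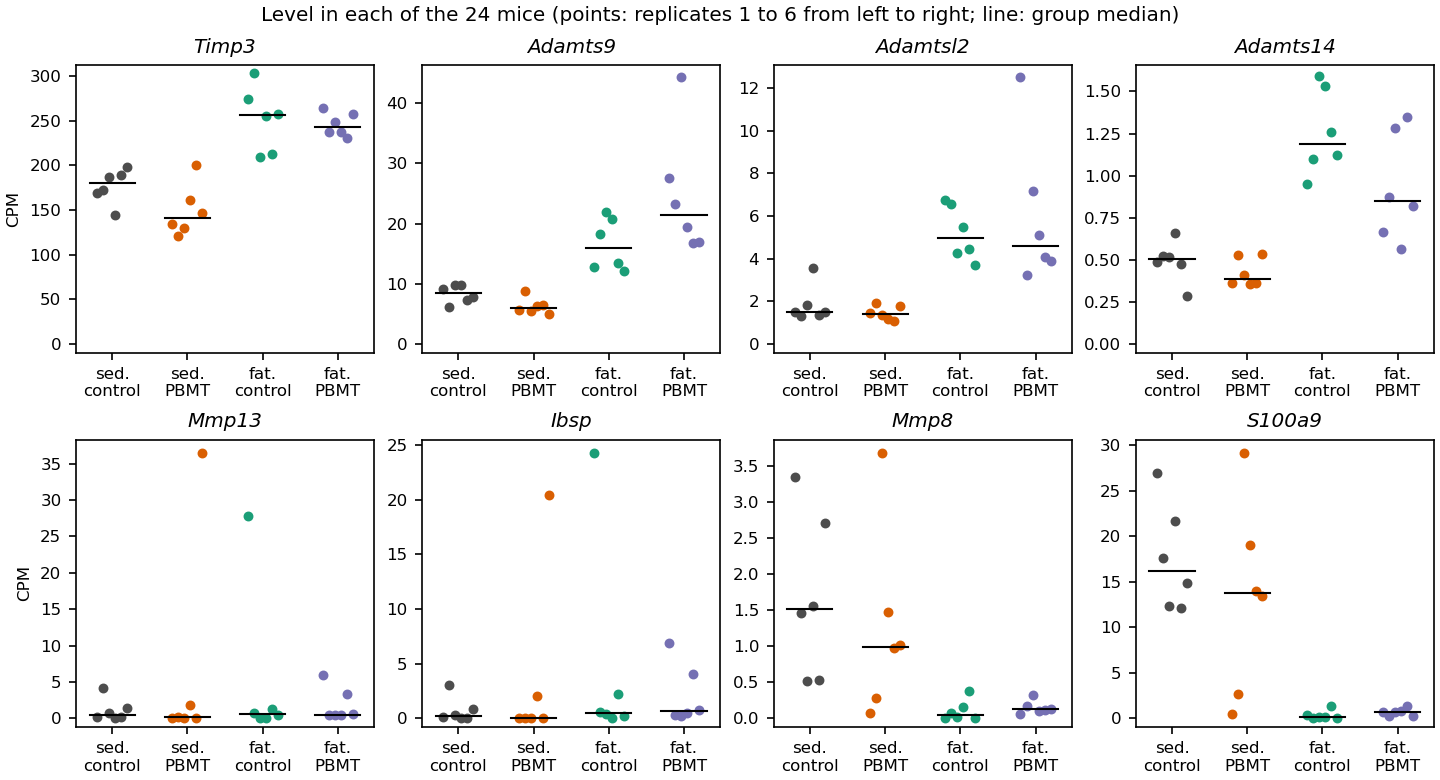
CPM of 8 genes in each of the 24 mice, with points for replicates 1 to 6 of each group from left to right and a line at the group median. Every fatigued mouse lies above every sedentary mouse of the same light treatment in the panels of Timp3, Adamts9, Adamtsl2 and Adamts14, while Mmp13 and the bone gene Ibsp peak together in sedentary PBMT mouse 6 (36.5 and 20.4 CPM) and fatigued control mouse 1 (27.8 and 24.3 CPM).

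The first question was whether light changed these genes in resting muscle. None of the 35 members tested in sedentary mice passed edgeR's quasi-likelihood test at an adjusted p under 0.05, against 0.0282% of all 14177 genes. DESeq2 and limma-voom also called 0 members, against 0.217% and 0.353% of all genes. At an unadjusted p under 0.05 there were 3 members (8.57%), all lower with PBMT, against 7.63% of all genes. In limma-voom there were 9 such members, 2 of them higher with PBMT (14.5% of all genes). Leaving out each mouse gave 1 to 6 (5.38% to 12.3% of all genes). For no member did the 6 PBMT mice and the 6 controls fail to overlap, against 0.508% of all genes. Fitted levels were lower with PBMT for 25 members and higher for 10, and the median log2 fold change was -0.17 (-0.0019 over all genes tested). Leaving out any of the 12 mice gave medians between -0.20 and -0.09.

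The 3 members with the smallest p in sedentary muscle were Adamts9, which cleaves versican and aggrecan, Adamts2, which removes the N-propeptide of fibrillar procollagens, and the inhibitor Timp3. Adamts9 (ENSMUSG00000030022, chr6:92772699-92943492, minus strand, GRCm38) ran from 6.15 to 9.8 CPM in controls (median 8.46) and from 4.98 to 8.76 CPM with PBMT (median 6.02). The groups overlapped, with 3 of 6 PBMT mice below the lowest control. Its log2 fold change was -0.40 (SE 0.142, p = 0.0128, adjusted p = 0.565 in edgeR's test; exact permutation p = 0.0368). Adamts2 (ENSMUSG00000036545, chr11:50602084-50807573, plus strand) ran from 14.4 to 18.7 CPM in controls (median 15.9) and from 12 to 16.9 CPM with PBMT (median 13.2). All but 1 of the PBMT mice lay below the lowest control, and the groups overlapped through that mouse. For Adamts2 the log2 fold change was -0.25 (SE 0.0978, p = 0.0195, adjusted p = 0.598; exact permutation p = 0.039). Timp3 ran from 145 to 198 CPM in controls (median 180) and from 121 to 200 CPM with PBMT (median 141). The single highest of these 12 mice was a PBMT mouse, and 3 PBMT mice lay below the lowest control. The log2 fold change of Timp3 was -0.24 (SE 0.113, p = 0.0497, adjusted p = 0.648; exact permutation p = 0.0931). Timp4, an inhibitor known from heart and skeletal muscle, was next (-0.22, SE 0.106, adjusted p = 0.648). None of these differences passed the adjustment. In the same mice, 0 of 6 fibroblast markers and 0 of 5 macrophage markers had a higher fitted level with PBMT (median log2 fold changes -0.25 and -0.55, none called), and their part in the lower levels of the members was not tested. Mmp13 had the largest fitted difference, 2.49 on the log2 scale, and without sedentary PBMT mouse 6 it was -1.38 (adjusted p = 0.828).

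In fatigued muscle the question was the same after the run. None of the 36 members tested passed edgeR's test, as for 0% of all 14574 genes. DESeq2 and limma-voom called 0 members too, with 0.00715% and 0% of all genes. A single member (2.78%) had an unadjusted p under 0.05, against 1.58% of all genes, and for 0 members the groups did not overlap, against 0.0343% of all genes. Fitted levels were higher with PBMT for 23 members and lower for 13, and the median log2 fold change was 0.11 (0.0041 over all genes). This direction rested on fatigued PBMT mouse 5: without it 11 members were higher and 25 lower, and the median was -0.10. In all 12 mice, 6 of 6 fibroblast markers also had a higher fitted level with PBMT (median 0.11, none called). So did 6 of 6 tendon markers (median 0.265) and 4 of 5 macrophage markers (median 0.0649). Higher levels were seen in 1 of 5 smooth muscle and pericyte markers and 0 of 4 Schwann cell markers. None of these was called, and their part in the levels of the members was not tested.

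Adamts9 was again the member with the smallest p, here on the higher side. It ran from 12.2 to 21.9 CPM in fatigued controls (median 15.9) and from 16.7 to 44.3 CPM in fatigued PBMT mice (median 21.4). The groups overlapped, with 3 of 6 PBMT mice above the highest control. Its log2 fold change was 0.58 (SE 0.25, p = 0.0395, adjusted p = 1; exact permutation p = 0.0714). Fatigued PBMT mouse 3 held the value of 44.3 CPM. Without it, no member was higher with PBMT at an unadjusted p under 0.05 in edgeR's test (1.43% of all genes in either direction). The same held without fatigued control mouse 1 or 6, or fatigued PBMT mouse 1 or 2 (1.55% to 2.6% of all genes). Adamts14, also a procollagen N-propeptidase, ran from 0.949 to 1.59 CPM in controls (median 1.19) and from 0.566 to 1.35 CPM with PBMT (median 0.849). Below the lowest control lay 4 of the 6 PBMT mice, and the other 2 lay within the range of the controls. For Adamts14 the log2 fold change was -0.44 (SE 0.235, p = 0.0841, adjusted p = 1; exact permutation p = 0.0801). Mmp3 (stromelysin-1, which cleaves proteoglycans and fibronectin and activates other Mmp enzymes) ran from 0.365 to 3.42 CPM in controls (median 0.791) and from 0.293 to 9.89 CPM with PBMT (median 1.46). The highest value was that of fatigued PBMT mouse 5, and the groups overlapped over most of their range. Mmp3 had a log2 fold change of 1.22 (SE 0.802, adjusted p = 1) and 0.16 without that mouse. Timp1, an inhibitor known to rise in injured tissue, went from a log2 fold change of 0.32 to -0.25 without the same mouse, with an adjusted p of 1 either way.

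Whether the light effect differed between the states was tested as an interaction in the fit to all 24 mice. None of the 39 members passed edgeR's test, against 0.00662% of all genes. DESeq2 and limma-voom called 0 members, against 0.00334% and 0.00662% of all genes. At an unadjusted p under 0.05 there were 3 members (7.69%), all with the higher light effect in fatigued muscle, against 4.4% of all genes. These were Adamts9 (difference of log2 fold changes 0.98, SE 0.301), Timp4 (0.38, SE 0.146) and Mmp19 (1.07, SE 0.484), each with an adjusted p of 0.946. The median difference was 0.21 over the members and 0.017 over all genes. Without fatigued PBMT mouse 5 the median over the members was 0.023, with 21 members above 0 and 18 below.

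Fatigued muscle was then compared with sedentary muscle, once in the control mice and once in the PBMT mice, and more members were called than in either test of the light. Below, rose and fell mean higher and lower in fatigued than in sedentary muscle of the same light treatment, and called so. Called means an adjusted p under 0.05 in the fit at hand. In controls, 10 of the 39 members were higher in fatigued than in sedentary muscle at an adjusted p under 0.05 (25.6%, against 9.1% of all 15108 genes tested) and 2 were lower (5.13%, against 9.49%). In PBMT mice, 20 members were higher (51.3%, against 14.1% of all genes) and 1 was lower (2.56%, against 12.7%). Fatigued and sedentary mice did not overlap for 7 members in controls, 6 higher and 1 lower (7.7% of all genes in either direction), and for 5 members in PBMT mice, all higher (11.2% of all genes). The median log2 fold change over the members was 0.51 in controls (-0.012 over all genes) and 0.73 in PBMT mice (0.0021 over all genes). These comparisons use different mice. Called in both were 11 members, all in the same direction, which is 91.7% of the 12 called in controls and 52.4% of the 21 called in PBMT mice. Over all genes, 2003 were called in both, which is 71.3% of those called in controls and 49.4% of those called in PBMT mice, and the separate sequencing of the states bears on both comparisons. The larger count in PBMT mice did not hold without fatigued PBMT mouse 5. In that fit 15 members were called in PBMT mice, 14 higher and 1 lower (21.8% of all genes in either direction), and 16 in controls, 14 higher and 2 lower (20.2% of all genes). The median in PBMT mice was then 0.49.

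**Figure D3:**
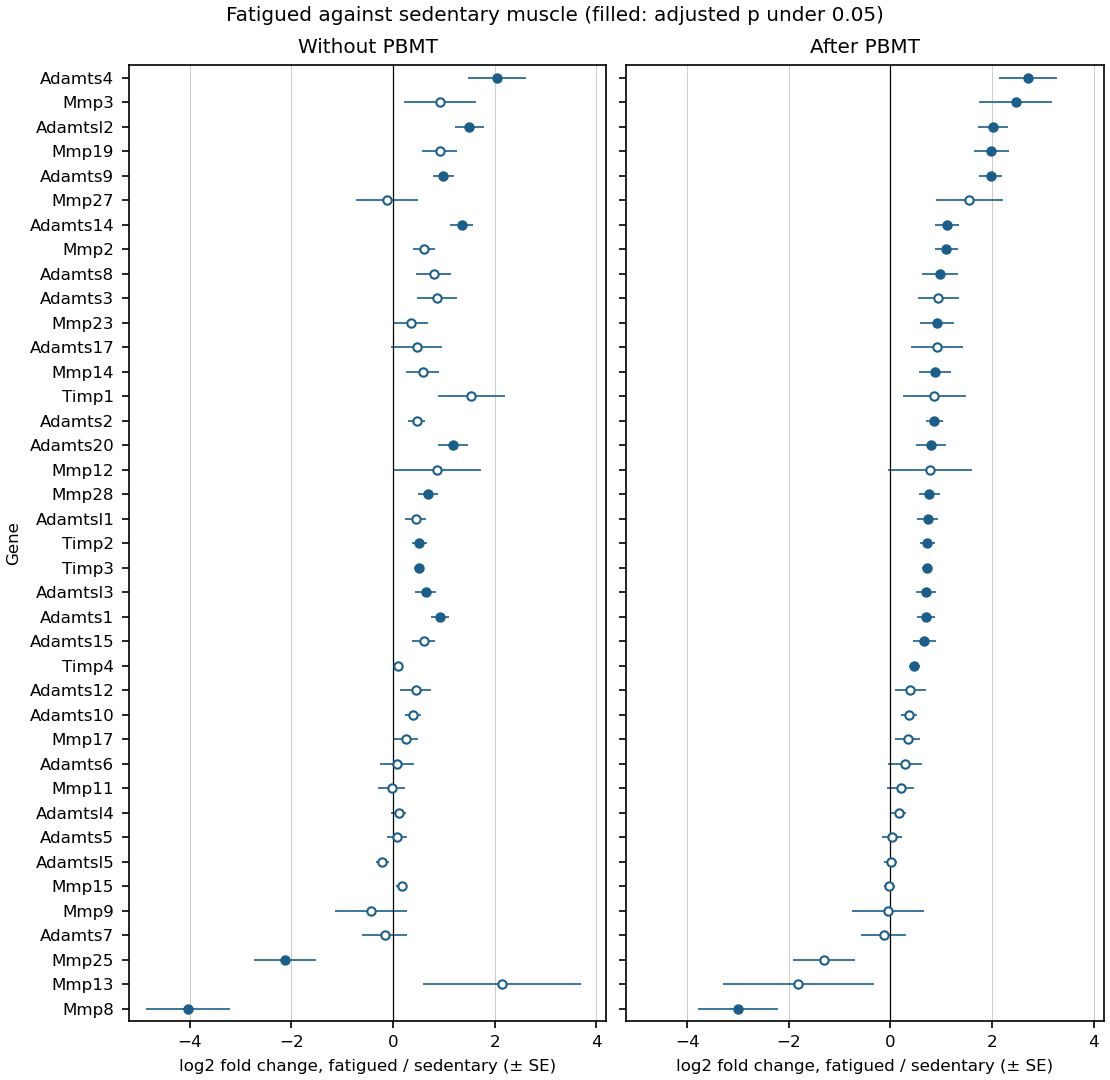
Log2 fold change of fatigued over sedentary muscle with its SE for the 39 tested genes, in control mice (left) and in PBMT mice (right), 6 against 6 mice in each panel, with filled points for an adjusted p under 0.05 in edgeR's test. Filled points lie to the right of 0 for 10 genes in controls and 20 in PBMT mice, and to the left for Mmp8 and Mmp25 in controls and for Mmp8 in PBMT mice.

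Of the 4 inhibitors, Timp2 and Timp3 rose in fatigued muscle in both comparisons and Timp4 in PBMT mice. Timp3 (ENSMUSG00000020044, chr10:86300372-86349506, plus strand), which binds to the extracellular matrix and inhibits Adamts as well as Mmp enzymes, ran from 145 to 198 CPM in sedentary controls (median 180) and from 209 to 303 CPM in fatigued controls (median 256). In PBMT mice it ran from 121 to 200 CPM in sedentary mice (median 141) and from 231 to 264 CPM in fatigued mice (median 243). Every fatigued mouse lay above every sedentary mouse. Its log2 fold change was 0.51 in controls (SE 0.104, adjusted p = 0.00116) and 0.72 in PBMT mice (SE 0.104, adjusted p = 1.46e-05). Timp3 lies inside Syn3 on the opposite strand and shares 21.3% of its exon bases with it. Syn3 averaged 0.3, 0.346, 1.15 and 0.87 CPM in the 4 groups (sedentary control, then sedentary PBMT, fatigued control and fatigued PBMT), far under the counts of Timp3, and the strand setting of the counting is not given in the sources used here. Syn3 was also called higher in fatigued muscle in both comparisons (log2 fold changes 1.93 and 1.32, adjusted p = 0.000823 and 0.00977).

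Timp2 (ENSMUSG00000017466, chr11:118301069-118355740, minus strand), which inhibits Mmp2 and also helps Mmp14 to activate it, ran from 75.6 to 88 CPM in sedentary controls (median 82.5) and from 86.2 to 145 CPM in fatigued controls (median 112). The PBMT mice ran from 65.2 to 102 CPM when sedentary (median 73.2) and from 99.1 to 203 CPM when fatigued (median 115). The groups overlapped at their edges in both comparisons. The rise of Timp2 was 0.51 on the log2 scale (SE 0.148, adjusted p = 0.0168) in controls and 0.73 (SE 0.148, adjusted p = 0.000784) in PBMT mice, the latter 0.54 without fatigued PBMT mouse 5 (adjusted p = 0.00163). Timp4 (ENSMUSG00000030317, chr6:115241892-115252205, minus strand) had medians of 49.9 and 42.4 CPM in sedentary control and PBMT mice and of 51.5 and 55.1 CPM in fatigued control and PBMT mice. Its lowest values in the same order were 40.2, 33.7, 48.3 and 51.8 CPM, and its highest 55.8, 53.1, 63.9 and 73.3 CPM. The states overlapped in both comparisons, and Timp4 passed the test in PBMT mice (log2 fold change 0.47, SE 0.104, adjusted p = 0.0014) and not in controls (0.10, SE 0.103, adjusted p = 0.545). Timp1 (chrX:20870166-20874735) was the least abundant inhibitor. Of the sedentary PBMT mice, 3 lay above the highest sedentary control and 1 below the lowest, and the log2 fold change of 0.99 with PBMT (SE 0.506, adjusted p = 0.659) was 0.41 without sedentary PBMT mouse 6. Its medians were 0.446, 0.729, 0.761 and 1.44 CPM in the 4 groups, its highest value was 4.33 CPM in fatigued PBMT mouse 5, and it passed neither test of the states (adjusted p = 0.108 and 0.321).

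Of the 7 Adamts proteases known to cleave versican, aggrecan or both, 4 rose in controls (Adamts1, Adamts4, Adamts9 and Adamts20) and 6 in PBMT mice (the same 4, Adamts8 and Adamts15), and Adamts5 passed neither test. Without fatigued PBMT mouse 5, 3 of the 6 calls in PBMT mice ended (Adamts8, Adamts15 and Adamts20, adjusted p from 0.0672 to 0.117) and the 4 in controls held. The log2 fold changes of these 3 genes were then 0.98, 0.47 and 0.78, against 0.97, 0.67 and 0.80 with all mice. Adamts9 had the smallest adjusted p of the family in PBMT mice. Its values in sedentary mice lay between 4.98 and 9.8 CPM and those in fatigued mice between 12.2 and 44.3 CPM. No fatigued mouse fell within the sedentary range. The log2 fold change was 0.99 in controls (SE 0.213, adjusted p = 0.00228) and 1.97 in PBMT mice (SE 0.219, adjusted p = 7.67e-07), the latter a 3.92-fold difference. The highest value was 44.3 CPM in fatigued PBMT mouse 3. A gene on the opposite strand, A730049H05Rik, shares 9.18% of the exon bases of Adamts9 and averaged 0.0252, 0.0196, 0.261 and 0.394 CPM in the 4 groups. It was also called higher in fatigued muscle in both comparisons (log2 fold changes 3.26 and 4.15, adjusted p = 0.000858 and 3.46e-05). Its sedentary levels were so low that A730049H05Rik entered the fit through the fatigued groups. No value of this gene without the filter on low counts is given here, and the size of its folds is uncertain.

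Adamts1 (ENSMUSG00000022893, chr16:85793827-85803113, minus strand) ran from 20 to 31.5 CPM in sedentary controls (median 24.3) and from 36.6 to 63.9 CPM in fatigued controls (median 43.5), with no overlap. In PBMT mice it ran from 21.2 to 33.2 CPM in sedentary mice (median 27.1) and from 28.3 to 66.4 CPM in fatigued mice (median 44.5), with overlap at the edge. Its log2 fold changes were 0.93 (SE 0.177, adjusted p = 0.000777) and 0.69 (SE 0.176, adjusted p = 0.00506). Adamts5, its neighbor 53.1 kb away on the same strand and the main aggrecan-cleaving enzyme of mouse cartilage, had medians of 14.8, 15, 14.7 and 16.9 CPM in the 4 groups. Its log2 fold changes between the states were 0.08 (SE 0.203) and 0.03 (SE 0.202). Of these neighbors, Adamts1 passed the test of the states and Adamts5 did not.

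Adamts4 (ENSMUSG00000006403, chr1:171250421-171260637, plus strand), an aggrecan- and versican-cleaving enzyme, was scarce. It ran from 0.0441 to 0.512 CPM in sedentary controls (median 0.193) and from 0.322 to 2.48 CPM in fatigued controls (median 0.654). With light, levels ran from 0.0185 to 0.593 CPM in sedentary mice (median 0.206) and from 0.572 to 2.89 CPM in fatigued mice (median 1.28). Most fatigued mice lay above the sedentary range, with overlap in both comparisons. Adamts4 rose by 2.04 on the log2 scale in controls (SE 0.571, adjusted p = 0.0148) and by 2.71 in PBMT mice (SE 0.573, adjusted p = 0.00114). The first call ended without fatigued control mouse 3 (1.56, adjusted p = 0.0523). Adamts4 passed the filter in fatigued and not in sedentary mice when each state was fitted alone, and with no filter both calls held (2.06 and 2.71, adjusted p = 0.0405 and 0.00428). Adamts20 ran from 1.26 to 3.27 CPM in sedentary controls (median 1.88) and from 1.74 to 8.9 CPM in fatigued controls (median 3.71). Sedentary PBMT mice ran from 2 to 3.83 CPM (median 2.46) and fatigued PBMT mice from 3.17 to 7 CPM (median 4.65). The states overlapped in both, with log2 fold changes of 1.17 (SE 0.298, adjusted p = 0.00779) and 0.80 (SE 0.294, adjusted p = 0.0446).

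The procollagen N-propeptidases are Adamts2, Adamts3 and Adamts14. Adamts14 (ENSMUSG00000059901, chr10:61197112-61273438, minus strand) rose in both comparisons. It ran from 0.287 to 0.659 CPM in sedentary controls and from 0.949 to 1.59 CPM in fatigued controls, and from 0.355 to 0.537 CPM and from 0.566 to 1.35 CPM in the PBMT mice of the same states. The states did not overlap in either comparison, although they came close in PBMT mice (0.537 and 0.566 CPM). Its log2 fold changes were 1.35 (SE 0.231, adjusted p = 0.000209) and 1.12 (SE 0.233, adjusted p = 0.000877). Adamts2 ran from 17.8 to 26.5 CPM in fatigued controls (median 22.9) and from 16.5 to 43 CPM in fatigued PBMT mice (median 22.1), against sedentary medians of 15.9 and 13.2 CPM. The states overlapped in both comparisons. Adamts2 passed the test in PBMT mice (0.87, SE 0.167, adjusted p = 0.000454) and not in controls (0.46, SE 0.166, adjusted p = 0.0524), and the interaction was not called (0.40, SE 0.235, adjusted p = 0.946). Adamts3 passed neither test.

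Of the 5 ADAMTS-like genes, Adamtsl2 and Adamtsl3 rose in both comparisons and Adamtsl1 in PBMT mice. Adamtsl2 (ENSMUSG00000036040, chr2:27079379-27108981, plus strand) encodes a secreted glycoprotein of fibrillin microfibrils. It ran from 1.3 to 3.56 CPM in sedentary controls (median 1.51) and from 3.73 to 6.74 CPM in fatigued controls (median 4.99). In PBMT mice it ran from 1.1 to 1.92 CPM in sedentary mice (median 1.42) and from 3.26 to 12.5 CPM in fatigued mice (median 4.6). Every fatigued mouse lay above every sedentary mouse of its light treatment, although sedentary control mouse 4, at 3.56 CPM, came near. Its log2 fold changes were 1.5 (SE 0.291, adjusted p = 0.000825) and 2.02 (SE 0.296, adjusted p = 2.11e-05). Adamtsl3 had log2 fold changes of 0.64 (SE 0.2, adjusted p = 0.0261) and 0.70 (SE 0.2, adjusted p = 0.0113). Its call in controls ended when sedentary control 1, sedentary control 5 or fatigued control 6 was left out (log2 fold changes from 0.55 to 0.61, adjusted p from 0.0532 to 0.0717). The abundant Adamtsl4 and Adamtsl5, which bind fibrillin microfibrils, passed neither test. Adamtsl5 had medians of 39.1, 33.6, 36.8 and 33.3 CPM in the 4 groups, and Adamtsl4 medians of 19.2, 17.4, 22.6 and 19.5 CPM.

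Of the gelatinases, Mmp2 (ENSMUSG00000031740, chr8:92827291-92853420, plus strand), which cleaves denatured collagen and type IV collagen, was higher in fatigued than in sedentary muscle among the PBMT mice. It ran from 20.3 to 44.9 CPM in sedentary PBMT mice (median 29.7) and from 46.6 to 129 CPM in fatigued PBMT mice (median 59.2), against 28.9 to 42.9 CPM (median 36.8) and 39.9 to 71 CPM (median 53.1) in the controls. The states overlapped in controls and not in PBMT mice. The log2 fold change of Mmp2 was 1.10 in PBMT mice (SE 0.22, adjusted p = 0.000762) and 0.81 without fatigued PBMT mouse 5, which held the value of 129 CPM (adjusted p = 0.00116). In controls it was 0.61 (SE 0.218, adjusted p = 0.0534), and the interaction was 0.49 (SE 0.307, adjusted p = 0.946). Mmp9 had medians of 2.3, 1.7, 0.989 and 1.08 CPM in the 4 groups and passed neither test (log2 fold changes -0.44 and -0.05, SE 0.714 and 0.705). Single mice bear on both folds. Fatigued control mouse 1 stood at 5.43 CPM, with the rest of its group at most at 1.29 CPM. Fatigued PBMT mouse 5 stood at 7.66 CPM, with the rest at most at 2.07 CPM. Sedentary PBMT mouse 6 was also high, at 5.57 CPM. Of the membrane-type enzymes, Mmp15 had medians of 21.6, 24.2, 24.1 and 24.9 CPM and passed neither test. Mmp14 (MT1-MMP), which activates pro-Mmp2, had medians of 9.37, 7.45, 13.3 and 13.2 CPM and reached 37.3 CPM in fatigued PBMT mouse 5. It was called in PBMT mice (0.88, SE 0.322, adjusted p = 0.0467), and without that mouse its log2 fold change was 0.45 (adjusted p = 0.226).

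Mmp19, a secreted Mmp that cleaves basement membrane proteins, was also higher in fatigued than in sedentary PBMT mice. It ran from 0.558 to 1.68 CPM in sedentary PBMT mice (median 0.921) and from 1.52 to 7.68 CPM in fatigued PBMT mice (median 3.09), with sedentary and fatigued medians of 1.35 and 2.64 CPM in the controls. All but 1 of the fatigued PBMT mice lay above the sedentary PBMT range. Its log2 fold change was 1.99 in PBMT mice (SE 0.351, adjusted p = 0.000188) and 0.92 in controls (SE 0.341, adjusted p = 0.0614). Mmp19 shares 22.3% of its exon bases with Tmem198b on the opposite strand, which averaged 3.04, 2.59, 3.14 and 3.69 CPM in the 4 groups and was higher in fatigued than in sedentary PBMT mice (0.51, adjusted p = 0.00652). Reads of these genes cannot be told apart in their shared bases if the counting ignored strand. Mmp28 (epilysin) rose in both comparisons, by 0.69 (SE 0.2, adjusted p = 0.0168) and 0.77 (SE 0.2, adjusted p = 0.00566) on the log2 scale, and shares 12% of its exon bases with 1700020L24Rik on the opposite strand, which averaged at most 0.0272 CPM in any group. Mmp3 was called in PBMT mice (2.47, SE 0.717, adjusted p = 0.0134), and without fatigued PBMT mouse 5 its log2 fold change was 1.41 (adjusted p = 0.0942). With the replicate number as a block in the model it was 1.92 (adjusted p = 0.0515).

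Several calls in PBMT mice lay near the threshold and were lost in some of the fits that left out each of the 24 mice in turn, also when the mouse belonged to neither group compared. That of Mmp14 (0.88) ended in 15 of these fits (without any sedentary control, sedentary PBMT 1, 3, 4 or 5, fatigued control 5 or 6, or fatigued PBMT 3, 5 or 6), with adjusted p from 0.0504 to 0.226. Its log2 fold change was 0.45 without fatigued PBMT mouse 5 and from 0.76 to 0.92 in the other 14. Adamts8, a proteoglycan-cleaving enzyme with medians of 4.66, 4.16, 7.58 and 8.12 CPM, was called at 0.97 (adjusted p = 0.0447) and lost the call in 12 fits (sedentary control 3 or 5, sedentary PBMT 1, 3, 4, 5 or 6, fatigued control 1 or 5, fatigued PBMT 2, 3 or 5), with adjusted p from 0.0509 to 0.174. The fold was 0.61 on the log2 scale without fatigued PBMT mouse 3 and from 0.85 to 0.98 in the other 11. Adamts20 (0.80) lost it in 11 fits (sedentary control 1 or 6, sedentary PBMT 1 to 5, fatigued PBMT 2 to 5), with adjusted p from 0.0511 to 0.115 and log2 fold changes from 0.66 to 0.87. Mmp23 (0.92, adjusted p = 0.0441) lost it in 9 fits (sedentary control 1 or 6, sedentary PBMT 1 to 5, fatigued PBMT 3 or 5), with adjusted p from 0.0501 to 0.248. Without fatigued PBMT mouse 5 it stood at 0.49, and in the other 8 at 0.80 to 0.94. Adamts15 (0.67, adjusted p = 0.0289) lost it in 3 fits (sedentary PBMT 1 or 4, fatigued PBMT 5), with adjusted p from 0.0544 to 0.117 and log2 fold changes of 0.65, 0.58 and 0.47. With all 24 mice but no filter on low counts, the calls of Mmp14, Adamts8, Adamts20 and Mmp23 ended (adjusted p from 0.0724 to 0.105), and in a fit to the 12 PBMT mice alone those of Mmp14, Adamts8 and Mmp23 (0.0647 to 0.106), with log2 fold changes within 0.01 of those above. The call of Mmp23 also ended in limma-voom (0.78, adjusted p = 0.0645). With the replicate number as a block in the model, the calls of Mmp14, Adamts8, Adamts20 and Mmp23 ended too. Their log2 fold changes were then 0.79, 0.91, 0.76 and 0.84, with adjusted p from 0.0578 to 0.109. Without sedentary PBMT mouse 6, fatigued control mouse 1 and fatigued PBMT mouse 5, those of Adamts8, Adamts15, Adamts20 and Mmp23 ended (log2 fold changes 0.90, 0.51, 0.92 and 0.75, adjusted p from 0.0532 to 0.132). The other 15 members called in PBMT mice, Mmp3 aside, passed in all 24 of these fits.

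The members that fell in fatigued muscle were Mmp8 and Mmp25, both known from neutrophils. Fitted within each state, both passed the filter in sedentary and not in fatigued mice, so they entered the fit to 24 mice through the sedentary groups. Mmp8 (neutrophil collagenase, ENSMUSG00000005800, chr9:7558456-7568485, plus strand) ran from 0.52 to 3.35 CPM in sedentary controls (median 1.51) and from 0 to 0.375 CPM in fatigued controls (median 0.0438). In PBMT mice it ran from 0.0801 to 3.69 CPM in sedentary mice (median 0.996) and from 0.0585 to 0.329 CPM in fatigued mice (median 0.127). The controls did not overlap, and in the PBMT mice the overlap came from sedentary mice 1 and 2, at 0.0801 and 0.286 CPM. Mmp8 fell by 4.03 on the log2 scale in controls (SE 0.823, adjusted p = 0.00148) and by 3.00 in PBMT mice (SE 0.782, adjusted p = 0.0065), the second call ending in limma-voom (-2.40, adjusted p = 0.119). Over all refits the log2 fold change of Mmp8 ran from -5.35 to -3.72 in controls and from -3.35 to -2.29 in PBMT mice, so the size of its fall is uncertain. Fatigued control mouse 5 held 23 of its counts and the other fatigued controls 0 to 9 each. With no filter the calls held (adjusted p = 0.00597 and 0.0207). Mmp25 (leukolysin, ENSMUSG00000023903, chr17:23628311-23645277, minus strand), anchored at the neutrophil surface, ran from 0.132 to 0.856 CPM in sedentary controls (median 0.27) and from 0.0152 to 0.153 CPM in fatigued controls (median 0.0873). The groups overlapped at the edge. It fell by 2.13 in controls (SE 0.611, adjusted p = 0.0161; 0.0226 with no filter and 0.0541 in limma-voom), and in PBMT mice its log2 fold change was -1.31 (SE 0.611, adjusted p = 0.116).

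Neutrophil markers moved with Mmp8 and Mmp25. The 6 markers, of which S100a9 was the most abundant (mean 7.95 CPM), had summed medians of 29.2 and 25.6 CPM in sedentary control and PBMT mice and of 0.535 and 1.4 CPM in fatigued control and PBMT mice. Sedentary PBMT mice 1 and 2, low in Mmp8, had sums of 1.28 and 4.54 CPM, and Mmp25 stood at 0.02 and 0.0613 CPM in them. All 5 of the tested markers fell among controls and 4 of 5 among PBMT mice (9.49% and 12.7% of all genes), and with no filter 5 and 4 of all 6. In fits within a state, 4 passed the filter in sedentary and 3 in fatigued mice. Ly6g averaged 0.306 and 0.264 CPM in the sedentary groups and 0 and 0.00295 CPM in the fatigued groups. A list of 6 granule protein genes was written after these values were seen and was led by Lcn2 (mean 2.78 CPM). Its summed medians were 12.3, 12, 1.9 and 2.49 CPM in the 4 groups. Of its 4 tested genes, 3 fell in both comparisons (3 of 6 with no filter). Only Lcn2, which was lower in both but not called, passed the filter in fatigued mice alone. The part of neutrophils in the lower Mmp8 and Mmp25 was not tested. Erythrocyte genes, 5 in all and led by Hbb-bs, had summed medians of 93.1, 94.7, 85.3 and 90 CPM in the 4 groups, and none of them was called.

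Mmp13, the other tested collagenase (ENSMUSG00000050578, chr9:7272514-7283331, plus strand), passed no test, and its direction turned with single mice. Its log2 fold change between the states was 2.15 (SE 1.55, adjusted p = 0.359) in controls and -1.08 without fatigued control mouse 1. In PBMT mice it was -1.81 (SE 1.49, adjusted p = 0.395), and 2.06 without sedentary PBMT mouse 6. In fatigued muscle the PBMT effect was -1.47 (adjusted p = 1), and 1.76 without fatigued control mouse 1.

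Genes that act with the family were read from lists. Over all genes tested, 9.1% rose in controls and 14.1% in PBMT mice, and 9.49% and 12.7% fell. Of the 17 tested activators and further inhibitors (20 listed), 13 had a higher fitted level in fatigued muscle in controls and 16 in PBMT mice. Of these, 8 rose among controls and 9 among PBMT mice, and none of the 17 fell. Among them were Reck, a membrane-anchored inhibitor of Mmp enzymes (0.79 and 0.97 on the log2 scale), Lrp1, the receptor that clears proteases with their inhibitors (0.84 and 1.21), Pcsk6, a proprotein convertase (0.78 and 1.07), and Sdc4, a heparan sulfate proteoglycan (1.00 and 1.63). Bsg, the most abundant of the list (mean 485 CPM), was not called. Of 25 tested substrates (28 listed), 11 rose in controls and 22 in PBMT mice, with median log2 fold changes of 0.65 and 1.07 over the list. Called or not, 24 had a higher fitted level in fatigued muscle in controls and 25 in PBMT mice. Versican (Vcan), the substrate of Adamts1, Adamts4, Adamts5 and Adamts9, rose by 1.43 and 2.01, fibronectin (Fn1) by 1.34 and 1.65 and thrombospondin 1 (Thbs1) by 1.36 and 1.72. The most abundant substrate, Col1a2 (mean 431 CPM), rose by 1.38 in PBMT mice. The summed substrates reached 7100 CPM in fatigued PBMT mouse 5, against a group median of 3230 CPM. Without this mouse 18 of the 25 rose in each comparison, with a median of 0.79 in PBMT mice. Of 13 tested related metalloproteases, 2 rose in controls and 5 in PBMT mice, among them Adam15 (0.80 and 1.24), while the most abundant, Adam9 (mean 85 CPM), was not called and Mep1b had no count. In the fit without fatigued PBMT mouse 5, 3 and 2 of these 13 rose (20.2% and 21.8% of all genes called in either direction). No gene of these lists was called in either PBMT comparison.

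Of 17 tested transcription factors and signals known to act on Mmp, Adamts or Timp genes, 8 rose in controls and 10 in PBMT mice, and none fell. With no filter on low counts, 4 of all 20 listed rose in controls and 9 in PBMT mice (6.93% and 11.1% of all genes called in either direction). In fits within a state, 16 of the list passed the filter in sedentary and 17 in fatigued mice. Runx1 rose by 1.86 and 2.48 on the log2 scale, Jun by 0.81 and 0.67 and Smad3, the most abundant (mean 128 CPM), by 0.55 and 0.97. The AP-1 gene Fosl1 had log2 fold changes of 3.37 and 4.44 at a low level (mean 0.261 CPM). No value of Fosl1 without the filter is given here, and the size of its folds is uncertain. Of 6 fibroblast markers (led by Dcn, mean 292 CPM) 1 rose in controls and 5 in PBMT mice, with summed medians of 440, 357, 503 and 490 CPM in the 4 groups. Of 6 tendon markers (led by Fmod, mean 120 CPM) 1 and 3 rose, with summed medians of 158, 166, 328 and 301 CPM. Of 5 macrophage markers (led by Mrc1, mean 12.1 CPM) 0 and 5 rose, with summed medians of 31.6, 20.6, 43 and 42.7 CPM. Called or not, 5 of 6 fibroblast, 5 of 6 tendon and 5 of 5 macrophage markers had a higher fitted level in fatigued controls. In PBMT mice these were 6, 6 and 5. Of 5 endothelial markers 1 and 2 rose, of 5 smooth muscle and pericyte markers 2 and 2, and of the 7 muscle fiber genes 4 and 3. Over all genes 9.1% and 14.1% rose, so counts of 1 or 2 in these short lists are not read as results about the lists. No mast cell, Schwann cell or adipocyte marker was called, and of the satellite cell and keratinocyte lists Pax7 and Krt10 were lower in fatigued than in sedentary PBMT mice. Of the 10 bone cell markers, a list written after values were seen, 1 rose in controls and 4 in PBMT mice. All 10 passed the filter in the fit to 24 mice, but 5 in sedentary and 7 in fatigued mice when each state was fitted alone. With no filter, the genes that rose in PBMT mice numbered 4 fibroblast, 1 tendon, 3 macrophage and 2 bone cell markers. The counts of these lists in controls did not change. Of all 4 keratinocyte genes, 3 were then lower in fatigued than in sedentary PBMT mice. Leaving out fatigued PBMT mouse 5, the genes that rose in controls and in PBMT mice numbered 2 and 3 of the fibroblast markers, 3 and 1 of the tendon markers, 1 and 3 of the macrophage markers and 3 and 1 of the bone cell markers, while the other marker lists and those of activators and of transcription factors kept their counts. In that fit 20.2% of all genes were called in controls and 21.8% in PBMT mice, in either direction. Dcn, Fmod and Comp are on the substrate list as well as on a marker list. The part of these cells in the rise of the members was not tested.

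On the chromosomes, 9 of the 22 Mmp genes lie in a single cluster, chr9:7272514-7699585, which holds Mmp13, Mmp12, Mmp1b, Mmp3, Mmp10, Mmp8, Mmp27, Mmp20 and Mmp7. Within it, Mmp8 fell in fatigued muscle in both comparisons, Mmp3 was called higher in PBMT mice, Mmp12, Mmp13 and Mmp27 passed no test, and Mmp10 (stromelysin-2) had 12 counts in 6 mice, all of them fatigued. Promoter sequence of 35 of the 50 members was matched in the RefSeq table for GRCm38.p6, with 38 start sites, and the 250 bases before each start were searched on both strands. Not matched were Adamts10, Adamts15, Adamts16, Adamts19, Adamts4, Adamts5, Adamts6, Adamts7, Adamts8, Adamtsl1, Mmp16, Mmp17, Mmp19, Mmp2 and Mmp9. The AP-1 motif TGANTCA was found in 7 of the 9 cluster members (Mmp10, Mmp12, Mmp13, Mmp1b, Mmp20, Mmp3 and Mmp7) and in 0 of the 26 other matched members. It was in 6.75% of all 32851 promoter windows of this length. Of the members called in both comparisons of the states, 10 were matched and 0 held it. The cAMP response element TGACGTCA was in 0 of the 35 matched members (1.55% of all windows), and TATAAA in 9 (12.4% of all windows). These matches describe letters in a window and not bound sites. The windows of 4 cluster members are shown because they set members that hold the motif beside Mmp8, which does not. They are chr9:7272264-7272513 for Mmp13, chr9:7445572-7445821 for Mmp3, chr9:7502092-7502341 for Mmp10 and chr9:7558179-7558428 for Mmp8, all on the plus strand, 5′ to 3′, from RefSeq, with capitals for the AP-1 match, which begins 35, 46 and 63 bases before the start in the first 3.
Mmp13: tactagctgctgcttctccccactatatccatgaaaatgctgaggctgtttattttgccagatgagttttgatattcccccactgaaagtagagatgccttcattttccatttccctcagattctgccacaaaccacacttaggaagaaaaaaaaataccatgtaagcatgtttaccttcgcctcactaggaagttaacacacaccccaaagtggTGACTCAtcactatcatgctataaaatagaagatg
Mmp3: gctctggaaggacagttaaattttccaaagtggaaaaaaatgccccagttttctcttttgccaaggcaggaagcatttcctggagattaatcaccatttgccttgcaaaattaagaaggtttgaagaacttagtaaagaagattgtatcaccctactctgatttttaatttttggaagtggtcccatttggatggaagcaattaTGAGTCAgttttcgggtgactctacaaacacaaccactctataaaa
Mmp10: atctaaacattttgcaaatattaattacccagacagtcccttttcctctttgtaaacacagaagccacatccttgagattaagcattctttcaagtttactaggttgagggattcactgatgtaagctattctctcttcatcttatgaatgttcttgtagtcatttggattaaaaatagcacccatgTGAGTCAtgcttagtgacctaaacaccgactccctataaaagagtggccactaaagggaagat
Mmp8: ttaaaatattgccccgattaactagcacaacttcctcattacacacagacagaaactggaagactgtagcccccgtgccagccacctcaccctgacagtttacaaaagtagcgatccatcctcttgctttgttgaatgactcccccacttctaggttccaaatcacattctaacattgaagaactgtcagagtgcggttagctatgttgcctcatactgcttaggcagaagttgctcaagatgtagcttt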

How the data were processed

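The authors deposited raw counts per gene, a file for each mouse, from directional poly(A) libraries read in pairs. The submitters' notes name GRCm38, Trimmomatic, STAR 2.7.1a, Picard 2.20.4, StringTie 2.0.4, featureCounts 1.6.0 and HTSeq; which tool made the counts, and its strand setting, are not given in the sources used here. Of 55487 identifiers, 55227 matched GENCODE M21, which gave symbols, coordinates and exon lengths. All 276 pairs of mice differed by more than sampling noise (lowest chi-square per gene 11.5).

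Tests were run in R 4.3.3 with edgeR 4.0.16: filterByExpr with a minimum count of 10, TMM, robust two-sided quasi-likelihood tests, with p adjusted by Benjamini and Hochberg's method over every gene tested and a threshold of 0.05. PBMT was compared within each state (12 mice), and the states and the interaction in a 4-group model of 24 mice. Exact two-sided permutation tests of 6 against 6 mice were run for named genes, 23 in sedentary and 22 in fatigued muscle (924 arrangements, smallest p = 0.00216, not adjusted). The scripts were tested on simulated data.

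Named genes are the 12 highest in CPM per kb, the 4 with the smallest p in each PBMT comparison, up to 8 called per comparison, and the Timp genes. Other names, among them Mmp9, Mmp13 and Mmp25, the bone cell and neutrophil granule lists, the exclusion of 3 mice and the list counts without fatigued PBMT mouse 5 or with no filter were chosen after values were seen. Members and lists were chosen with earlier results of these data known. Alternatives were no filter, DESeq2 size factors, DESeq2 1.42.0, limma 3.58.1 voom with quality weights, other sets of mice in the model, the replicate number as a block, and leaving out each mouse.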

Additional observations from a re-analysis of the deposited data

Results flagged for a closer look

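For 24 named members, the highest or lowest of the 6 mice of each group was compared with its neighbor. In 18 of 96 groups that mouse lay further from the rest than Dixon's 95% critical ratio for 6 values allows. That ratio flags about 1 in 20 groups by chance if values are normally distributed. Here it was applied to CPM without a transformation, and the groups share the same mice. The number of flags is therefore not compared with that rate. Of the 24 members, Mmp9, Mmp13 and Mmp25 were chosen after their values were seen, and for the other 21 the flags numbered 12 of 84 groups. Of the 18 flagged values, 6 belonged to fatigued PBMT mouse 5: Timp2 at 203 CPM, Mmp2 at 129 CPM, Mmp14 at 37.3 CPM, Mmp3 at 9.89 CPM, Mmp9 at 7.66 CPM and Timp1 at 4.33 CPM, each the highest of its group, with 5 of them among the 12 flags of the members not chosen in this way.

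In sedentary PBMT mouse 6, Timp2 (102 CPM) and Mmp13 (36.5 CPM) stood above the other 5 mice. In fatigued control mouse 1 these were Mmp13 (27.8 CPM) and Mmp9 (5.43 CPM), and in fatigued control mouse 5 Timp4 (63.9 CPM) and Mmp3 (3.42 CPM). Sedentary PBMT mouse 2 was high in Mmp15 (33 CPM) and Adamts8 (9.75 CPM), and fatigued PBMT mouse 3 in Adamts8 (19.7 CPM). Among sedentary controls, mouse 2 was high in Mmp13 (4.22 CPM), mouse 4 high in Adamtsl2 (3.56 CPM) and mouse 3 low in Mmp9 (1.11 CPM).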

How the results depend on the processing

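Of 1434 recomputed values of single genes, 1020 with a mouse left out and 324 in other settings kept their direction and their side of the threshold, 55 and 19 calls were lost in the same direction, and 5 and 11 values changed sign. Members called between the states numbered 11 to 16 in controls (13.6% to 24.7% of all genes) and 15 to 23 in PBMT mice (21.2% to 31.2%) when each mouse was left out, and 0 in every fit of the PBMT effects and the interaction. Without 3 mice (sedentary PBMT 6, fatigued control 1 and fatigued PBMT 5, chosen after seeing the data) there were 17 in each comparison of the states (16.4% of all genes in controls, 20.3% in PBMT mice). Without the filter there were 12 in controls and 17 in PBMT mice (6.93% and 11.1% of all genes), and in fits to only the 12 mice compared 15 and 18 (16.5% and 26.9%). With DESeq2 size factors they numbered 14 and 21 (18.6% and 26.5%), in DESeq2 16 and 21 (10.7% and 14.5%) and in limma-voom 17 and 20 (32.7% in both), against 12 and 21 as reported (18.6% and 26.8%).

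Members at an unadjusted p under 0.05 in sedentary muscle numbered 9 in limma-voom (14.5% of all genes), 6 without the 3 mice (6.56%) and 1 to 6 with each mouse left out (5.38% to 12.3%), against 3 as reported (7.63%). In fatigued muscle they numbered 3 in limma-voom (2.84% of all genes), 2 without the 3 mice (1.71%) and 0 to 2 with each mouse left out (1.11% to 2.6%), against 1 (1.58%). For the interaction they numbered 1 without the 3 mice (3.53% of all genes) and 2 to 5 with each mouse left out (3.23% to 6.48%), against 3 (4.4%). The cause was not tested.

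Mmp13 changed sign most often. Its PBMT effect in sedentary muscle (2.49) became -1.71 in limma-voom and -1.38 without sedentary PBMT 6, alone or with the other 2 mice. In fatigued muscle (-1.47) it became 1.5 without the 3 mice and 1.76 without fatigued control 1. Between the states it became -1.07 and -1.08 in controls in the same settings (2.15), and in PBMT mice 1.67 in limma-voom, 1.80 without the 3 mice and 2.06 without sedentary PBMT 6 (-1.81). Its interaction (-3.96) became 1.29 in limma-voom and 2.87 without the 3 mice. In fatigued muscle the PBMT effect on Mmp3 became -0.025 without the 3 mice, and that on Timp1 -0.079 without them and -0.25 without fatigued PBMT 5. With each mouse left out in turn, Mmp13 ran from -1.38 to 3.60 and from -2.28 to 1.76 for PBMT in sedentary and fatigued muscle, and from -1.08 to 3.25 and from -2.62 to 2.06 between the states in controls and PBMT mice, and Timp1 ran from -0.25 to 0.91 in fatigued muscle. Beyond the left-out mice, the cause was not tested.

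Same-numbered fatigued control and PBMT mice had correlated deviations in part (from -0.0863 to 0.34), and 3 of 6 correlated best with their own number. In sedentary mice the correlations ran from -0.0795 to 0.0772 (1 of 6), and between the states from -0.286 to 0.0412 (0 of 12). With the replicate number as a block, 12 members were called between the states in controls (17% of all genes), 16 in PBMT mice (24.9%) and 0 elsewhere. The calls lost in PBMT mice were Mmp14 (0.79), Mmp23 (0.84), Adamts8 (0.91), Adamts20 (0.76) and Mmp3 (1.92), with adjusted p from 0.0515 to 0.109. Members at an unadjusted p under 0.05 numbered 5 in sedentary (7.25% of all genes) and 3 in fatigued muscle (2.43%), and the PBMT effect on Mmp13 in fatigued muscle became 0.10. The cause was not tested. Depth limits Mmp8, Mmp25 and Adamts4, which had 928, 233 and 1061 counts in 24 mice.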
